A study of Arabidopsis thaliana with 28 samples.

Results

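The universal stress protein genes followed here are 10 Arabidopsis thaliana loci, taken by locus identifier from a fixed list and each read by the probe set that the array annotation gives to that locus alone. The list was chosen with earlier results of these data known. Counts of called members and places in the order of p therefore describe these genes and are no independent support. All 10 loci were measured, by 1 probe set each, among 13355 genes on 13513 probe sets with 1 annotated gene. In the TAIR10.1 annotation 8 of them lie on chromosome 3 and 2 on chromosome 1, and AT3G03270 and AT3G03290 are separated by 2 other genes. For every member the level was followed through 4 oxygen levels and 3 durations, to see which members move with oxygen and which with time in darkness.

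The samples were roots of seedlings of ecotype col2, described as 2 weeks old, raised on vertical agar plates with 1% sucrose at 22 °C and 12 h of light per day. From day 10 after germination they were kept in continuous darkness under a gas stream with 1%, 4%, 8% or 21% oxygen, 350 ppm CO2 and the rest N2, for 0.5, 2 or 48 h. The 21% group of each duration is the control and is called air below. These are 12 groups and 28 arrays, 1 per RNA sample, with 3 arrays in air at each duration and at 8% for 48 h, and 2 arrays in each other group. All groups share the darkness, the sucrose and the ecotype. No array was kept in light, so time in darkness, time under the gas stream and the age of the seedlings cannot be told apart in a comparison of durations. The samples were whole roots, so fewer cells of a type and less RNA per cell cannot be told apart. Each array carries a replicate letter from A to G, and nothing in the labels says that the letters are separate cultures, so the p values measure the spread between these arrays, which may be technical. Letters A and B occur only at 48 h, and letters C, D, E and G only at 0.5 or 2 h. Letter F occurs at all 3 durations, so a comparison of 48 h with an earlier duration also compares letters. The treatment text of the 8% array B at 48 h also holds the word control, but its title and the oxygen given in that text are those of 8%, where it was counted.

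The universal stress protein domain is named after a bacterial protein that accumulates when growth stops or nutrients run out. It is a small alpha/beta fold, and many of its members bind ATP or AMP. Plants carry many genes with the domain, some of which encode little more than the domain itself, while others join it to a protein kinase. AT3G03270 is known as HRU1, for hypoxia responsive universal stress protein. Its transcription is raised in low oxygen by the group VII ethylene response factors, which plants keep at low levels in air by degrading them in an oxygen-dependent way. The HRU1 protein interacts with a ROP GTPase and an NADPH oxidase, and so belongs to the control of hydrogen peroxide under low oxygen. AT3G53990 encodes a universal stress protein studied as a chaperone in cold and oxidative stress, and AT3G01520 is known from a crystal structure of its protein. For the other members no role is given here.

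Values are MAS5 signals, a linear probe set intensity that the authors scaled to a trimmed mean of 100 on each array. Array medians were 33.7 to 45.7. Differences were tested with limma on log2(signal + 6), 1 mean per group over all 28 arrays, and a result is called when its Benjamini-Hochberg adjusted p over the 13513 probe sets was under 0.05. A log2 fold change is given with its standard error (SE). Signals of different probe sets are not compared with each other. Of the marker lists, 2 of 12 root genes and 1 of 10 leaf photosynthesis genes had a probe set of their own. The root beta-glucosidase PYK10 had signals of 2715 to 8962, the root hair expansin EXPA7 14.4 to 153.1, and the Rubisco activase gene RCA 28.3 to 236.6.

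Oxygen changed 2 of the 10 members. In a single test of any difference from air over the 9 comparisons, AT3G03270 (adjusted p = 2.47e-05) and AT3G11930 (adjusted p = 0.00205) passed, and each of the other 8 had an adjusted p of 1. Over all probe sets 0.17% passed this test. Both genes were higher in low oxygen in every called comparison, and of the 90 single values (10 members in 9 comparisons) 6 were called. The 8 other members gave 72 values, of which 0 had an unadjusted p under 0.05 in limma (the smallest was 0.0578), against 2.15% of the values of all probe sets in the 9 comparisons, so the absence is near what the array as a whole shows.

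After 2 h AT3G03270 followed the oxygen level step by step. Its signals were 1808 and 1658 at 1% oxygen, 1354 and 1151 at 4%, 516.3 and 550.9 at 8%, and 204.3, 318.7 and 297.3 in air. No group overlapped the next, and even the 8% arrays lay above all 3 air arrays. The rise was 6.33-fold at 1% (log2 fold change 2.66 ± 0.355 SE, adjusted p = 0.000235) and 4.57-fold at 4% (2.19 ± 0.355, adjusted p = 0.00516). At 8% the log2 fold change of 0.97 ± 0.355 was not called (unadjusted p = 0.0125 in limma, adjusted p = 1), and 0.0222% of all probe sets were. Leaving out 4% array D, 4% array F or air array D ended the 4% call, with adjusted p up to 0.21, as did a fit with each array centred on its median (0.0562).

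AT3G11930 had almost the same course at 2 h. It had signals of 2413 and 2407 at 1% oxygen, 1804 and 1632 at 4%, 671.2 and 812.9 at 8%, and 263.4, 488.4 and 455.5 in air. Again the 4 groups did not overlap. The gene rose 6.12-fold at 1% (2.61 ± 0.322, adjusted p = 0.000105) and 4.36-fold at 4% (2.13 ± 0.322, adjusted p = 0.00244), while the 8% value of 0.92 ± 0.322 was not called (unadjusted p = 0.01 in limma, adjusted p = 1). Leaving out either 4% array ended the 4% call, with adjusted p up to 0.108. At 1% for 2 h the 2 called members stand against 0.34% of all probe sets called, and at 4% against 0.126%, all of these higher than air. In the order of p over the 13513 probe sets, AT3G11930 and AT3G03270 were at places 12 and 18 at 1%, and at places 11 and 13 at 4%.

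**Figure D1:**
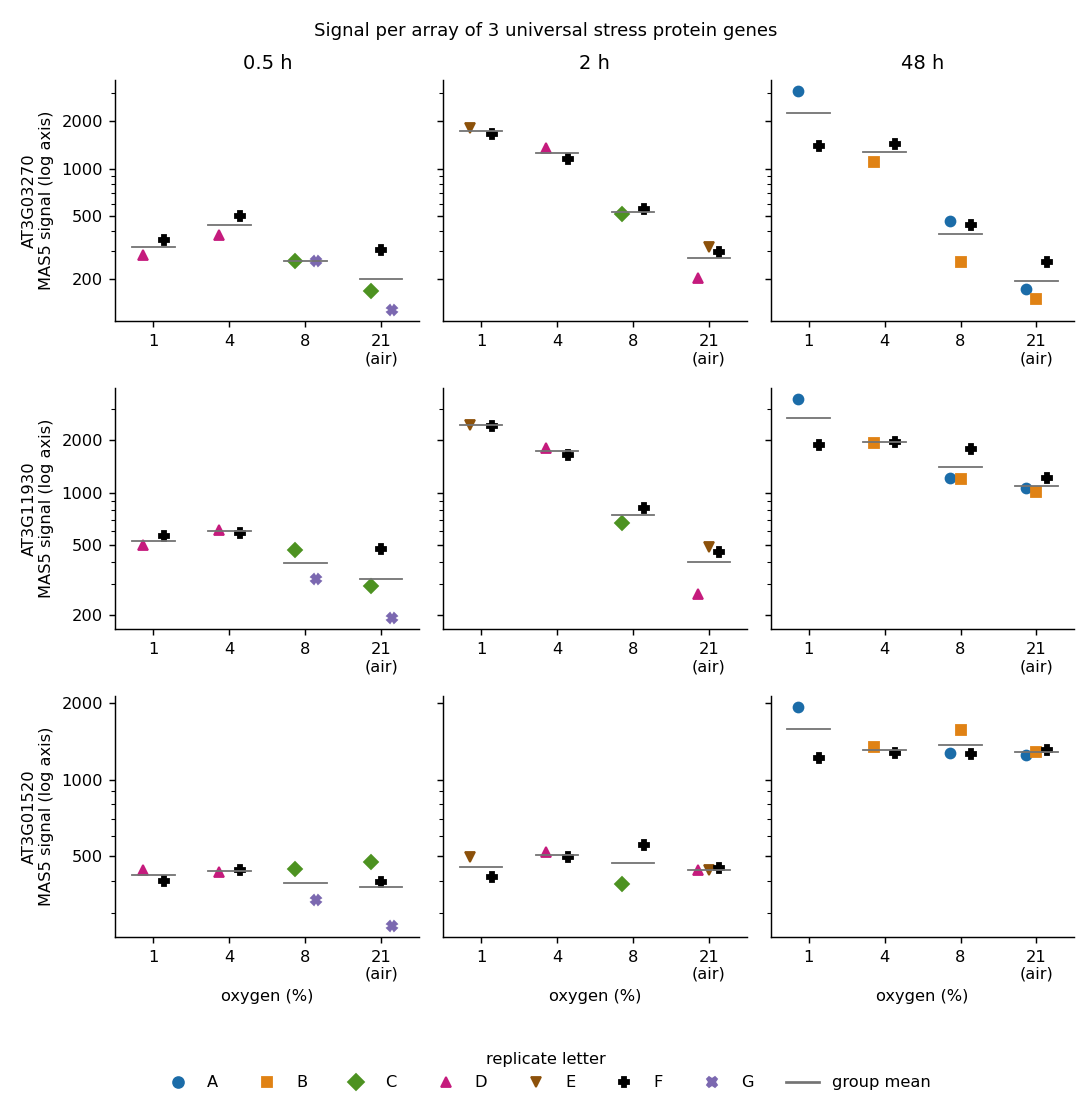
MAS5 signal (log axis) of AT3G03270, AT3G11930 and AT3G01520 on each array against oxygen (%), with 1 panel per duration, symbols for the replicate letter and grey bars for group means. At 2 h the 4 oxygen groups of AT3G03270 and of AT3G11930 do not overlap, and all 10 arrays at 48 h of AT3G01520 lie at 1218 or above, against at most 553.1 on the 18 earlier arrays.

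After 48 h the calls of the 2 genes differed in the fit without pairing, and the genes were not tested against each other. AT3G03270 had signals of 3110 and 1382 at 1% oxygen, 1101 and 1431 at 4%, 468.2, 254.8 and 438.7 at 8%, and 172.8, 148.7 and 258.1 in air. The 1% and 4% groups overlapped each other and lay far above air, and the lowest 8% array (letter B) was just under the highest air array (letter F). Within a letter 8% was above air at 48 h in 3 of 3 pairs, by 1.407 on letter A, 0.753 on letter B and 0.752 on letter F on the log2 scale. The rise was 10.7-fold at 1% (3.42 ± 0.355, adjusted p = 4.27e-05) and 6.50-fold at 4% (2.70 ± 0.355, adjusted p = 0.00114). Called at 48 h were 0.0962% of all probe sets at 1% and 0.037% at 4%, and AT3G03270 had the smallest p of all 13513 at 1% (place 1) and the third smallest at 4% (place 3). At 8% its value of 0.97 ± 0.317 was not called (unadjusted p = 0.00622 in limma, adjusted p = 1; with the letter as a block, also 0.97, adjusted p = 0.525), and no probe set of the array was called there. The 1% and 4% calls held without any 1 array of the comparison, with log2 fold changes of 2.84 to 4.01 and 2.51 to 2.92. They were lost in a fit of the 10 arrays at 48 h alone, where the same values of 3.42 and 2.70 had adjusted p of 0.104 and 0.385.

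AT3G11930 at 48 h had signals of 3424 and 1865 at 1% oxygen, 1916 and 1945 at 4%, 1210, 1188 and 1776 at 8%, and 1059, 1005 and 1207 in air. Every 1% and 4% array again lay above every air array, but the air arrays themselves were far above the 263.4 to 488.4 of air at 2 h. Its log2 fold changes of 1.21 ± 0.322 at 1% (adjusted p = 0.401), 0.83 ± 0.322 at 4% (adjusted p = 1) and 0.33 ± 0.288 at 8% (adjusted p = 1) were not called. A fit that pairs the arrays by replicate letter, which holds at this duration, gave 1.15 at 1% and a call (adjusted p = 0.0304). The unpaired value changed to 0.78 when 1% array A was left out and to 1.65 when 1% array F was.

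The response was compared between 48 and 2 h within the same fit, as the difference of the 2 log2 fold changes. For AT3G11930 the differences were -1.40 ± 0.455 at 1%, -1.30 ± 0.455 at 4% and -0.59 ± 0.432 at 8%. In limma the unadjusted p values were 0.00594, 0.00979 and 0.189, and each adjusted p was 1, so none was called. Within letter F, the letter found in all groups compared, the differences were -1.76, -1.14 and -0.27. For AT3G03270 they were 0.76 ± 0.502 at 1%, 0.51 ± 0.502 at 4% and 0.00 ± 0.476 at 8%, with no unadjusted p under 0.146. None of the 10 members was called for a difference in response, against 0.0518% of all probe sets at 1% and 0 at 4% and 8%. The unadjusted p was under 0.05 for 1 member at 1%, 1 at 4% and 0 at 8%.

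After 0.5 h no member was called at any oxygen level (1, 2 and 0 members at 1%, 4% and 8% had an unadjusted p under 0.05 in limma), against 0.0518% of all probe sets at 1%, 0.0444% at 4% and 0.0148% at 8%. AT3G03270 had signals of 283.8 and 351.6 at 1% oxygen, 380.3 and 499.9 at 4%, 258.8 and 258.5 at 8%, and 167.7, 306.3 and 127.2 in air. The 4% arrays lay above all air arrays, while the 1% and 8% groups overlapped air. Within a letter 8% was above air in both pairs, by 0.608 on letter C and 0.989 on letter G on the log2 scale. AT3G11930 had 499.3 and 561.8 at 1%, 611.5 and 588.9 at 4%, 468.9 and 321.5 at 8%, and 292.5, 473.8 and 192.9 in air. Its 1% and 4% arrays lay above all air arrays. At 4% the log2 fold changes were 1.19 ± 0.355 for AT3G03270 and 0.99 ± 0.322 for AT3G11930, with unadjusted p values of 0.0031 and 0.00602 in limma and adjusted p of 1 for both. Within letter F, shared by the 4% and air groups, they were 0.70 and 0.31.

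The step between 1% and 8% oxygen was tested at each duration. AT3G03270 was called at 48 h, 5.47-fold higher at 1% (2.45 ± 0.355, adjusted p = 0.00707), as 1 of the 2 probe sets called on the whole array (0.0148%). The call did not survive leaving out 1% array A or 8% array B (adjusted p up to 0.204), nor the fit of the 48 h arrays alone (adjusted p = 1). At 2 h the values were 1.69 ± 0.389 for AT3G03270 (adjusted p = 0.16) and 1.70 ± 0.353 for AT3G11930 (adjusted p = 0.0753), where 0.111% of probe sets were called. The 2 h value of AT3G03270 was called in the fit of the 2 h arrays alone (1.69, adjusted p = 0.046), and that of AT3G11930 after quantile normalization (1.83, adjusted p = 0.0251) and without the dimmest 40% of probe sets (1.70, adjusted p = 0.0405). At 0.5 h they were 0.28 ± 0.389 and 0.44 ± 0.353, with adjusted p of 1 and no probe set called (0%).

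**Figure D2:**
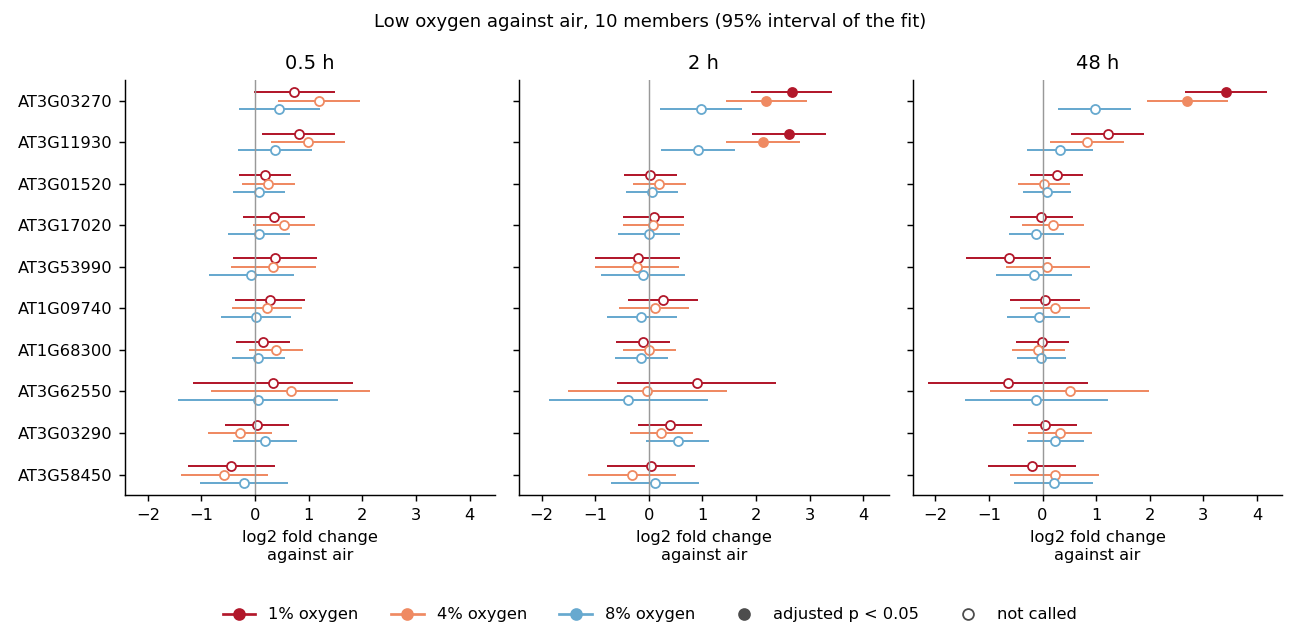
Log2 fold change against air of the 10 members at 1%, 4% and 8% oxygen, with 1 panel per duration, lines for the 95% interval of the fit and filled points for adjusted p under 0.05. The 6 filled points belong to AT3G03270 at 2 and 48 h and to AT3G11930 at 2 h, and the other 8 members have open points throughout.

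The 1% array F at 48 h stood apart from its partner array A, and the 1% results at 48 h rest on these 2 arrays. Of 22 listed low-oxygen response genes 7 had a probe set of their own, and all 7 were lower on array F than on array A. The regulator gene AT3G10040 had signals of 361.7 on array A and 18.31 on array F, against 35.98, 13.82 and 21.24 in air. The pyruvate decarboxylase gene PDC2 had 778.6 and 178.0, against 160.9, 127.8 and 112.4 in air. Still, 6 of the 7 genes were above all 3 air arrays on array F, as all 7 were on array A. AT3G03270 on array F (1382) was also far above the highest air array (258.1). AT3G11930 on array F (1865) was above all air arrays too. The log2 fold change of AT3G03270 at 1% was 4.01 with array A as the lone 1% array and 2.84 with array F as the lone 1% array, both called.

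Over all 12 group means the levels of AT3G03270 were highest in 1% at 48 h (2246 ± 1220, SD, n = 2), 1% at 2 h (1733 ± 106, SD, n = 2), 4% at 48 h (1266 ± 234, SD, n = 2) and 4% at 2 h (1252 ± 143, SD, n = 2). They were lowest in 8% at 0.5 h (259 ± 0.217, SD, n = 2), air at 0.5 h (200 ± 93.9, SD, n = 3) and air at 48 h (193 ± 57.5, SD, n = 3). Of the 11 pairs of neighbours in this order 8 overlapped and 3 did not. The gaps were between 1% at 2 h and 4% at 48 h, between 4% and 8% at 2 h, and between 8% at 2 h and 4% at 0.5 h. For AT3G11930 6 of the 11 pairs did not overlap, and its highest mean was also 1% at 48 h (2644 ± 1100, SD, n = 2) and its lowest air at 0.5 h (320 ± 142, SD, n = 3). For AT3G01520 the order had a single gap, between the 4 groups at 48 h and the 8 earlier ones.

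Some members, AT3G11930 among them, changed with the duration in air, at an unchanged oxygen level. In a single test over the 3 durations in air, AT3G01520 (adjusted p = 6.19e-05) and AT3G11930 (adjusted p = 0.00169) passed, where 4.88% of all probe sets did. Across the pairs of durations 3 of the 10 members were called in air, all of them higher at 48 h. They were AT3G01520 and AT3G11930 at 48 against 2 h, where 5.47% of probe sets were called and 2.36% were higher. AT3G17020 joined them at 48 against 0.5 h, where 4.64% were called and 2.06% were higher. Between 2 and 0.5 h no member was called and no probe set of the array was (0%), while 0 members and 244 probe sets had an unadjusted p under 0.05 in limma.

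AT3G01520 was called for duration and at no oxygen level. It had signals of 1251, 1284 and 1305 in air at 48 h, against 440.8, 441.8 and 449.4 in air at 2 h and 474.1, 397.9 and 267.3 in air at 0.5 h. The 48 h arrays stood clear of all others. The gene was 2.86-fold higher at 48 than at 2 h (1.51 ± 0.203, adjusted p = 0.000312) and 3.42-fold higher at 48 than at 0.5 h (1.77 ± 0.203, adjusted p = 7.74e-05), at place 5 of 13513 in the order of p for the second. Both calls held without any 1 array, with log2 fold changes of 1.50 to 1.53 and 1.55 to 1.95. Within letter F, the 1 letter shared by these groups, the differences in air were 1.525 against 2 h and 1.698 against 0.5 h.

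The rise of AT3G01520 was present at each oxygen level. It had signals of 1931 and 1218 at 1% for 48 h, against 497.4 and 413.8 at 1% for 2 h. At 4% it had 1347 and 1266 at 48 h, against 520.9 and 495.8 at 2 h, and at 8% it had 1271, 1566 and 1257 at 48 h, against 388.5 and 553.1 at 2 h. In each case the 48 h arrays were more than 2 times the highest 2 h array. The log2 fold changes were 1.74 ± 0.248 at 1% (adjusted p = 0.00102), 1.35 ± 0.248 at 4% (adjusted p = 0.0189) and 1.54 ± 0.227 at 8% (adjusted p = 0.00154). It was the 1 member called at these levels, where 1.26%, 0.237% and 1.49% of all probe sets were called. Leaving out 4% arrays D or F at 2 h or B at 48 h ended the 4% call (adjusted p up to 0.175), and leaving out 8% array C at 2 h ended the 8% call (adjusted p = 0.0913).

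Averaged over the 4 oxygen levels, AT3G01520 was 2.90-fold higher at 48 than at 2 h (1.54 ± 0.116, adjusted p = 3.27e-08). Against air of the same duration its 9 log2 fold changes ran from 0.03 to 0.26, and their 95% intervals from -0.44 to 0.73. Changes in response between 48 and 2 h had intervals of -0.44 to 0.90 at 1%, -0.83 to 0.51 at 4% and -0.61 to 0.66 at 8%.

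AT3G11930 was the 1 member called for both oxygen and duration. In air it had 1059, 1005 and 1207 at 48 h, against 263.4, 488.4 and 455.5 at 2 h. The 2 groups were separated by more than the whole range of either. This was a 2.77-fold rise (1.47 ± 0.288, adjusted p = 0.0057), and the rise over 0.5 h was 3.58-fold (1.84 ± 0.288, adjusted p = 0.00103). Both held without any 1 array of the comparison. Within letter F the differences in air were 1.394 against 2 h and 1.338 against 0.5 h. With oxygen lowered, the difference between 48 and 2 h was 0.88 ± 0.322 at 8% (adjusted p = 0.197), 0.17 ± 0.353 at 4% (adjusted p = 0.916) and 0.07 ± 0.353 at 1% (adjusted p = 0.991). AT3G03270 had no called difference between durations, with -0.50 ± 0.317 in air (adjusted p = 0.414) and 0.26 ± 0.389 at 1% (adjusted p = 0.917).

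**Figure D3:**
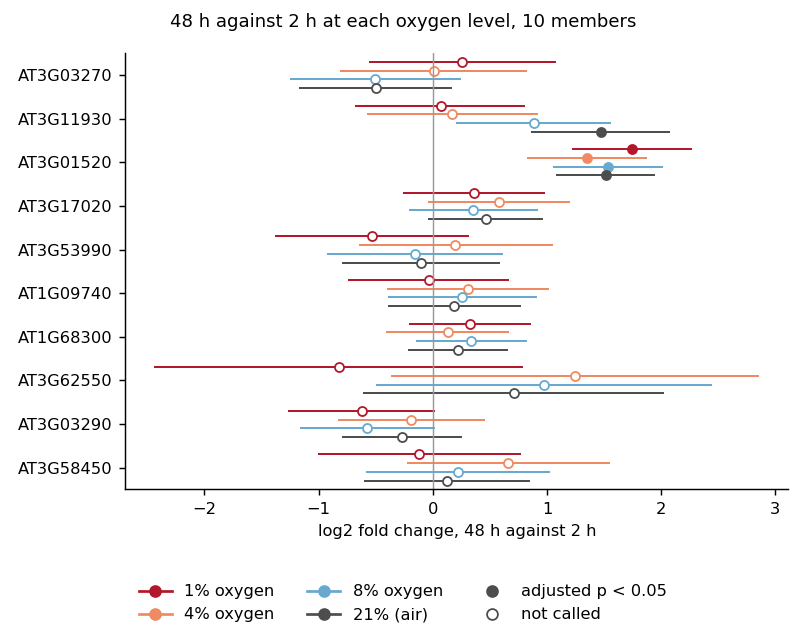
Log2 fold change at 48 h against 2 h of the 10 members at 1%, 4%, 8% and 21% oxygen, with lines for the 95% interval of the fit and filled points for adjusted p under 0.05. AT3G01520 is filled at all 4 oxygen levels between 1.35 and 1.74, and AT3G11930 is filled in air and lies near 0 at 1% and 4%.

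Averaged over the 4 oxygen levels, 4 members were called for 48 against 2 h, 3 higher and 1 lower. Over all probe sets 21.5% were called, 9.89% higher and 11.6% lower, so a call in this comparison was common. Beside AT3G01520, AT3G11930 rose by 0.65 ± 0.165 (adjusted p = 0.00757) and AT3G17020 by 0.44 ± 0.137 (adjusted p = 0.0258). AT3G17020 had signals of 1991 to 3396 on the 10 arrays at 48 h (median 2690), against 1600 to 2313 on the 9 arrays at 2 h (median 2016). The ranges overlapped. In air AT3G17020 had 2104, 3160 and 2837 at 48 h, against 1708, 1705 and 1054 at 0.5 h, without overlap (0.87 ± 0.238, adjusted p = 0.0407). That call was kept in 1 of the 6 fits that left out an array of the comparison, and the fit paired by letter gave 0.49 and no call (adjusted p = 0.083).

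The lower member was AT3G03290, a dim probe set with 20 of 28 arrays under a signal of 6. It had 0.328 to 7.35 at 48 h (median 1.09, 10 arrays), against 1.86 to 8.63 at 2 h (median 4.06, 9 arrays), with a log2 fold change of -0.41 ± 0.142 (adjusted p = 0.043). It was lost in 11 of the 19 fits that left out an array, and with the letter as a block the value was -0.08 (adjusted p = 0.698). On letter F the mean difference was -0.095.

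With 1 mean per group over all 28 arrays and no pairing by letter, no call was made for AT3G53990, AT3G62550, AT3G58450, AT1G09740 or AT1G68300 in any of the comparisons of oxygen or duration. Their 95% intervals say how large an oxygen effect this fit could still hold. Differences between letters are part of the error in it, so they enter these intervals. For AT1G68300 the 9 log2 fold changes against air were -0.14 to 0.39 and their intervals reached from -0.62 to 0.87. AT1G09740 had -0.14 to 0.28, with intervals from -0.77 to 0.92. AT3G53990 had -0.63 to 0.38, with intervals from -1.40 to 1.14. AT3G62550 had -0.64 to 0.89, and its wide intervals from -2.11 to 2.36 do not bound a change of the size seen in AT3G11930. AT3G58450 had 26 of 28 arrays under a signal of 6, the constant added before the log, so its values bound no change of level.

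AT3G53990 had even signals at 2 h, between 1282 and 1773 on 9 arrays. At 48 h it ran from 644.3 to 1898 and at 0.5 h from 777.9 to 1667. The low values lay on arrays of letters A and G, at low oxygen and in air alike. The 3 arrays of letter A at 48 h had 644.3 at 1%, 975.3 at 8% and 930.8 in air, while the 3 of letter B had 1723 at 4%, 1842 at 8% and 1802 in air. The 2 arrays of letter G at 0.5 h had 921.7 at 8% and 777.9 in air.

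AT3G62550 was low to moderate on all arrays, from 7.65 to 85.2, and at 48 h split by letter without overlap. Letter F had 33.51 at 1%, 69.3 at 4%, 66.68 at 8% and 80.65 in air. Letter B had 25.05 to 29.28 and letter A 7.65 to 11.7. On the 4 arrays of letter F at 2 h it had 9.387 to 20.01, so within letter F each 48 h array was above every 2 h array. The 3 arrays of letter F at 0.5 h had 25.45 to 52.79, which lay above the 2 h arrays and overlapped the 48 h arrays. Within letter F the level was thus lowest at 2 h. The differences on letter F were 1.09 at 1%, 1.81 at 4%, 2.24 at 8% and 1.74 in air. Over all arrays 48 against 2 h in air gave 0.71 ± 0.628 (adjusted p = 0.582), and with the letter as a block 2.03 (adjusted p = 0.0109). Averaged over the oxygen levels the values were 0.53 ± 0.36 (adjusted p = 0.319) and, with the block, 1.60 (adjusted p = 0.00192). The block also brought AT3G62550 past the threshold in the test over the 3 durations in air (adjusted p = 0.0328). Letter F is the 1 letter found at both 2 and 48 h, so the block values rest on its arrays. The block assumes that letters differ alike at each duration, which these arrays cannot show between 2 and 48 h. At 2 h letter F overlapped letter D (15.95 to 20.89), while at 48 h it lay above letters A and B. Whether the rise is particular to letter F was not tested. The highest array of AT3G62550 was E at 1% for 2 h (85.2), where letter F had 12.52.

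The leaf gene RCA also split by letter at 48 h, with 101.3 to 167.7 on letter F, 48.89 to 59.74 on letter B and 28.3 to 34.15 on letter A, in the same order as AT3G62550. At 2 h, though, letter F had RCA signals of 94.72 to 118.9, close to its 48 h values, while AT3G62550 was at 9.387 to 20.01 there. The part of leaf or shoot RNA in the course of AT3G62550 was not tested.

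**Figure D4:**
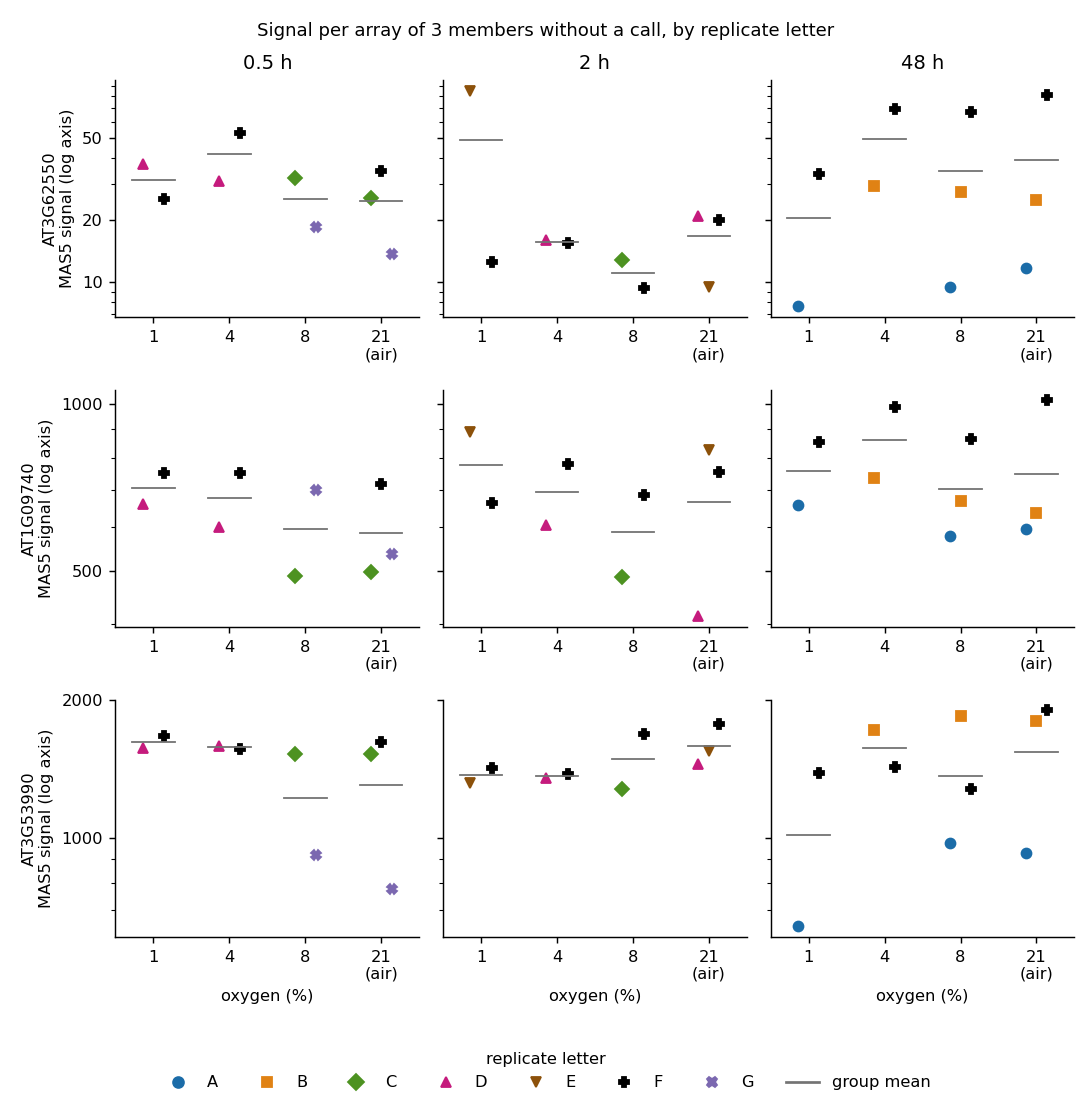
MAS5 signal (log axis) of AT3G62550, AT1G09740 and AT3G53990 on each array against oxygen (%), with 1 panel per duration, symbols for the replicate letter and grey bars for group means. At 48 h letter F lies above letters A and B for AT3G62550 and AT1G09740 at each oxygen level, and letter A, where present, is the lowest for AT3G53990.

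The levels of AT1G09740 also went in part with the letter. Letter C had 487.6 to 497.6 on its 3 arrays, and letter D 413.7 to 659.8 on its 4. Letter F had 661.1 to 779.0 on its 7 arrays at 0.5 and 2 h and 854.7 to 1014 on its 4 at 48 h. Letter E at 2 h was higher than letter F there, with 825.7 and 889.5. Letter G had 535.2 and 699.5 at 0.5 h. Letters A and B overlapped at 48 h, with 576.7 to 657.2 and 635.7 to 736.2. Within letter F the 48 h value was higher than the 2 h value at each oxygen level, by 0.37 at 1%, 0.34 at 4%, 0.33 at 8% and 0.425 in air. Over all arrays 48 against 2 h in air gave 0.19 ± 0.273 (adjusted p = 0.762), and with the letter as a block 0.51 (adjusted p = 0.0299). This block value also rests on letter F. AT1G68300 had 624.0 to 938.6 at 48 h (median 770.2), against 539.8 to 764.7 at 2 h (median 647.4). Averaged over the oxygen levels its value was 0.25 ± 0.118 (adjusted p = 0.135), and with the block 0.32 (adjusted p = 0.0251). In air its value for 48 against 0.5 h was 0.62 ± 0.206 (adjusted p = 0.0943), which was called without air array B at 48 h (0.79, adjusted p = 0.0458).

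Further genes with the universal stress protein domain set the members in their family. Of 35 listed, 32 had a probe set of their own, which with the members makes 42 measured genes. In the fit without pairing, none of the 32 was called in any of the 9 comparisons with air or in the single test of oxygen. Over all probe sets 0.17% passed that test and at most 0.34% were called in a comparison, so this absence is near that share. Values with the letter as a block are not given for the 32 genes. At 1% for 2 h their log2 fold changes ran from -0.68 to 0.69 (median 0.03, against -0.02 over all probe sets). At an unadjusted p under 0.05 in limma there were 0 to 2 of the 32 per comparison, against 2.15% of the values of all probe sets. The largest value against air was that of AT2G47710 at 1% for 48 h, 2.04 ± 0.414 with an adjusted p of 0.0741. It had signals of 1828 on array A and 1062 on array F, against 376.8, 248.0 and 402.1 in air.

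For duration in air, 4 of the 32 were called at 48 against 2 h, all higher, where 5.47% of all probe sets were called and 2.36% were higher, with a median of 0.16 over the list and 0.09 over all probe sets. AT5G47740 rose by 1.43 ± 0.381 (adjusted p = 0.0319), AT2G45910, whose domain is joined to a protein kinase, by 1.15 ± 0.29 (adjusted p = 0.0234), AT5G65500 by 0.87 ± 0.237 (adjusted p = 0.0348) and AT5G14680 by 0.63 ± 0.169 (adjusted p = 0.0338). AT5G14680 had signals of 191.1 to 312.9 on the 10 arrays at 48 h, against 109.4 to 160.9 on the 9 at 2 h and 112.5 to 160.2 on the 9 at 0.5 h. As for AT3G01520, its 48 h arrays did not overlap the earlier ones at any oxygen level. RD2, PHOS32 and PHOS34, family genes named for desiccation and for phosphorylation, were measured and not called for oxygen or for duration in air.

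**Figure D5:**
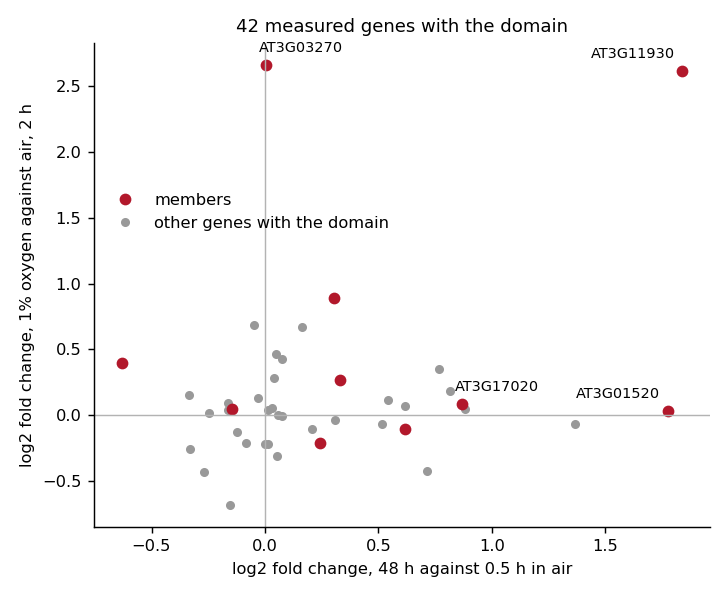
Log2 fold change at 1% oxygen against air for 2 h (vertical) against log2 fold change at 48 h against 0.5 h in air (horizontal) for the 10 members (red) and 32 other measured genes with the domain (grey), from comparisons that share no array. AT3G03270 (2.66 and 0.01) and AT3G11930 (2.61 and 1.84) stand above all other genes on the vertical axis, and AT3G01520 (0.03 and 1.77) lies far right at the level of air.

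The low-oxygen genes and the darkness genes give the scale for both kinds of change. All 7 measured low-oxygen genes were called higher at 1% and at 4% for 2 h, with median log2 fold changes of 5.55 and 4.97. At 48 h their medians were 1.96 at 1%, with 4 called, and 2.73 at 4%, with 3 called. AT3G03270 stood at 2.66 and 2.19 at 2 h and at 3.42 and 2.70 at 48 h, so it was below those medians at 2 h and above or near them at 48 h. Of 15 listed genes of darkness and sugar starvation 3 were measured, all in leucine breakdown. IVD rose in air at 48 against 2 h by 1.13 (adjusted p = 0.034), and all 3 (IVD, MCCA and MCCB) were called higher in the average over oxygen levels, as AT3G01520 was. The single levels differed, however. The median of the 3 was 0.261 at 1%, 1.05 at 4%, 1.245 at 8% and 0.806 in air, while AT3G01520 had 1.74, 1.35, 1.54 and 1.51. The root hair gene EXPA7 moved the other way in the average over oxygen levels, by -0.93 ± 0.199 (adjusted p = 0.00214). PYK10, the second root gene measured, had 0.49 ± 0.195 in that average (adjusted p = 0.0766). PYK10 at 48 h had 6516 to 8962 on letter B and 3710 to 4305 on letter A, both absent at 2 h. On letter F it had 3161 to 3455 at 48 h and 3041 to 3431 at 2 h. The part of these changes in the results on duration was not tested.

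By the pattern of the 12 group means on the log2 scale, 5 genes were most like AT3G03270 among 2030 candidates that were in the brighter part of the array and varied by at least 1 log2 unit. They were TIL, temperature-induced lipocalin (Pearson r = 0.971 over 12 group means), AT2G17850 (0.954), the tetraspanin gene TET2 (0.910), the gibberellin receptor gene GID1A (0.882) and AT5G05790 (0.871). The means share arrays, scaling and depth of signal, and r describes them without a test. TIL had means of 1366 at 1%, 721 at 4%, 440 at 8% and 349 in air at 48 h, and 1100, 731, 488 and 400 at 2 h. Its 1% mean at 48 h came from arrays of 642.5 and 2089, which overlapped the 4% arrays (635.9 and 805.7). Among the members AT3G11930 was the most like AT3G03270 (r = 0.844), followed by AT1G09740 (0.616) and AT3G17020 (0.473).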

How the data were processed

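Roots of 12 groups were hybridized to 28 Affymetrix arrays. Per the labels' protocols, RNA was extracted with Trizol and 10 µg of total RNA was labelled with biotin. The deposited values are intensity values made by the authors with MAS5, per the submitters' processing notes, and each array has a mean trimmed by 2% at each end of 100. The version and the detection calls are not given in the sources used here, and the number of arrays limits the precision.

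Of 22810 probe sets, 64 controls were left out. The platform annotation named 1 gene for 13513, several for 503 and none for 8730, and locus names came from it and from RefSeq (TAIR10.1), with 13436 probe sets matched to a locus. The analysis used limma 3.58.1 in R 4.3.3 on log2(signal + 6), where 6 is the rounded 20th percentile of all values, with 1 mean per group (16 residual degrees of freedom), moderated by empirical Bayes along an intensity trend. All tests were two-sided. There were 22 comparisons and 2 F tests, each adjusted by Benjamini-Hochberg over 13513 probe sets. Folds come from this log2 scale and understate changes of dim genes. The script was tested on simulated data that held no differences between letters, so that test does not bear on the pairing.

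Arrays that share a letter were correlated after group means were removed: r exceeded 0.1 in 6 of 6 pairs at 0.5 h (from 0.457 up to 0.718), in 12 of 12 pairs at 48 h (from 0.328 up to 0.728) and in 5 of 8 pairs at 2 h (from -0.117 up to 0.689). In a group of 2 arrays the values left after removing the mean mirror each other, so these pairs are not all independent. Pairing by letter was thus taken to hold at 0.5 and 48 h but not throughout 2 h. A fit with letter as a block, which leaves 10 residual degrees of freedom, is quoted where it alters a call. It assumes the same differences between letters at every duration, and letter F is the 1 letter found at both 2 and 48 h.

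The members and gene lists, the named genes (all 10 members, and the 5 genes most like AT3G03270) and the tests were chosen with earlier results of these data known. Other domain genes were read from a list of locus identifiers. Alternatives were quantile normalization, centring on the median, a pseudocount of 2 or 24, a filter on the dimmest 40% of probe sets, a fit without the intensity trend, the letter as a fixed or random block, all probe sets that are not controls, the compared durations alone, and each array left out in turn. Gene and protein sequences were not used here, and a planned search for promoter motifs was not run.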

Additional observations from a re-analysis of the deposited data

How the results depend on the processing

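The 19 called results of single members gave 343 values under the alternatives. Of these 299 stayed called, 44 fell short of the threshold and 0 changed direction. The count of 6 calls for low oxygen against air was 4 to 7, that of 5 calls for duration in air 4 to 7, and the 2 members of the oxygen test were 2 under every alternative run. The 2 members of the test over durations in air became 3 in 4 alternatives, with AT3G17020 added by quantile normalization (adjusted p = 0.0472), without the dimmest 40% (0.0374) and with the letter as a random block (0.0325), and AT3G62550 with the letter as a fixed block. The test of any oxygen effect could not be refitted with the compared durations alone, since it uses all of them. The 3 calls for 48 against 2 h at the low oxygen levels became 5 with the letter as a fixed block, which added AT3G62550 at 4% and 8%. The 4 calls averaged over oxygen were 2 to 4 with an array left out, 2 without 4% array B at 48 h or without 8% array C at 2 h. The 1 call for 1% against 8% became 2 with quantile normalization, 2 without the dimmest 40%, 3 with the letter as a random block (correlation 0.632; AT3G03270 and AT3G11930 at 2 h added), and 0 to 2 with an array left out. With the letter as a fixed block the average for AT1G09740 was called as well (0.40, adjusted p = 0.00773), and the other calls that this block changed are given in the report or above. The random block also called AT1G68300 for 48 against 0.5 h in air (0.53, adjusted p = 0.0344). Over all probe sets the block raised the calls at 1% against air to 224 at 2 h and 307 at 48 h, against 46 and 13 without it, and those for 48 against 2 h in air to 2698, against 739. Scaling moved the median of all probe sets at 1% for 48 h, which was -0.106 as deposited, -0.003 after quantile normalization and 0.063 after centring. The 2 or 3 arrays per group limit precision, and where 1 array is left of a group, it is assumed to vary like the other groups. Dim probe sets (AT3G58450, AT3G03290) cannot show small changes.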
